A study of Mus musculus with 6 samples.

Results

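The keratin gene family was read on 6 Affymetrix mouse expression arrays, 3 of mammary tumors with acinar histology and 3 of control mammary glands. Keratins were taken as all genes whose platform annotation is a single symbol of the form *Krt* followed by a number and at most 1 letter. This gave 48 keratin genes, read by 61 probe sets, among 18193 genes named on the array. Where a gene had several, the brightest by mean log2 signal stood for it. The tumors had grown in *K14-cre*; *ApcCKO/+* mice of a mixed C57BL/6, 129/S and FVB background, in which the *K14* promoter drives Cre in basal and progenitor cells of the epithelium and deletes 1 conditional allele of *Apc*, a brake on Wnt signaling. All 3 tumors were heterozygous for the deleted allele and carried a truncating mutation in the remaining one. The control glands came from age-matched *cre*-negative mice. The study describes the tumor-bearing females of this genotype as nulliparous, and the age of each sample and the parity of the control mice are not given in the sources used here. Tumors of this model often hold areas of squamous metaplasia and more than 1 histological pattern, and whole tissue was extracted, so that the acinar label covers a mixture of cells. The sources call the samples biological replicates without saying that each came from its own mouse, and p-values measure only the spread between these samples.

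Keratins are the intermediate filament proteins of epithelial cells. An acidic type I keratin always pairs with a basic or neutral type II keratin, and the pair in use marks the kind of epithelium. *Krt8* and *Krt18* form the filaments of simple epithelia, such as the luminal cells of the mammary gland, whereas *Krt5* and *Krt14* form those of its basal, myoepithelial layer. *Krt1* and *Krt10* replace the basal pair in the upper layers of the epidermis, *Krt6a*, *Krt6b*, *Krt16* and *Krt17* are found in skin appendages and are induced by wounding, and a large set of hair keratins is used by the inner root sheath and the shaft of the hair. By these roles the 48 genes were split into 5 simple, 3 basal, 4 stress-induced squamous, 10 suprabasal squamous, 8 inner root sheath, 13 hair shaft and 5 other keratins.

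Of the 48 genes, 21 passed a signal of 100 or more on 3 or more arrays and were tested, and 27 were not. Signals are in arbitrary units, and they are comparable between arrays for 1 gene but not between genes. In the limma fit over all 12518 genes tested, 3 keratins, *Krt8*, *Krt18* and *Krt23*, rose in tumors at an adjusted p under 0.05, and 1, *Krt7*, fell. The remaining 17 did not pass. As shares, 14.3% of the tested keratins were higher and 4.76% lower, beside 16.3% and 16.8% of all genes tested. The share higher was thus near that of the array as a whole, and the share lower was below it. The median log2 difference between tumors and control glands was 0.30 over the tested keratins and 0.07 over all genes tested. Counted over all 48 genes with no filter, 10 keratins were higher in each tumor than in any control gland and 3 were lower, while 20.6% and 19.3% of all genes did so. A signal of 100 was reached on all 6 arrays by 12 keratins and on none by another 12.

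The makeup of the tissue differed between the groups. The summed signal of 17 pan-epithelial genes, such as *Epcam* and *Cdh1*, ranged from 8455 to 21228 in the controls and from 76175 to 91049 in the tumors. Of these genes 15 rose and 2 did not pass, with a median log2 difference of 2.49. Across the settings tried, 12 to 15 of them rose. All 8 adipocyte genes and all 8 fibroblast genes measured fell, with medians of -6.33 and -3.40. The count of fibroblast genes lower was 5 without control replicate 2, control replicate 3 or tumor replicate 2, and 4 with no filter. Of the markers of endothelium 6 of 8 fell, and of those of leukocytes 2 of the 4 tested, a count of 1 with no filter or without tumor replicate 3. Across the settings tried, 4 to 8 endothelium genes and 7 to 8 adipocyte genes were lower. More epithelial cells and more keratin RNA per cell cannot be told apart in these samples, and the part of tissue makeup in each keratin difference was not tested. The median signal over all probe sets ranged from 132.7 to 170.7 on the control arrays and from 124.4 to 138.3 on the tumor arrays. *Apc* itself was read at 1922.4, 2076.9 and 2148.9 in the control glands against 1922.9, 1525.9 and 2006.1 in the tumors, and because the place of its probes relative to the deleted part was not determined, these values do not test the labels.

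**Figure D1:**
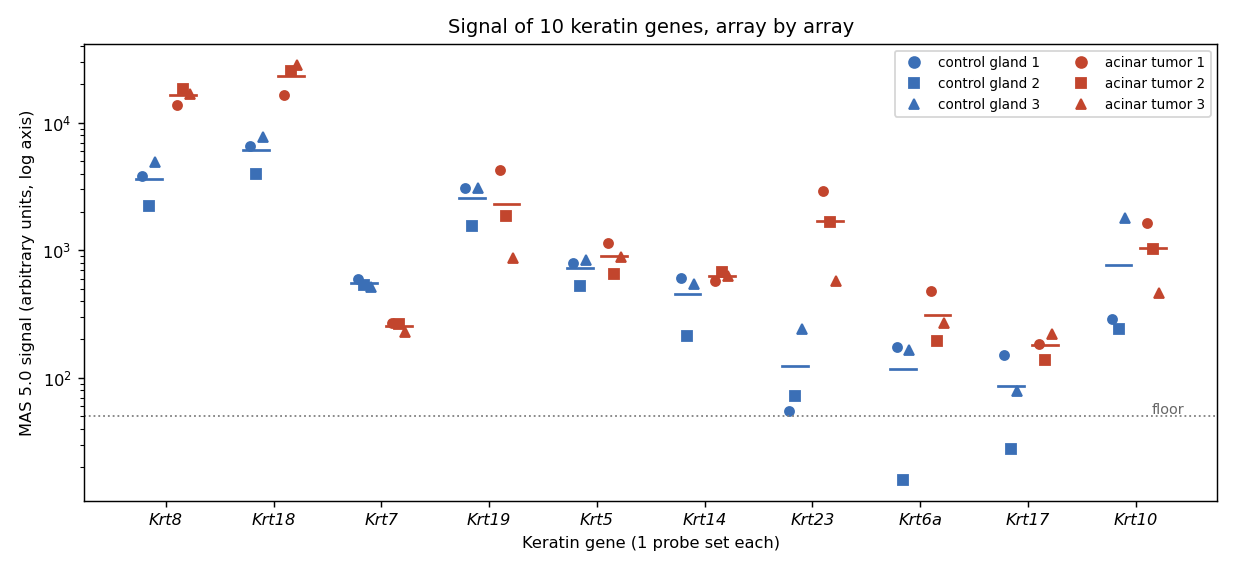
Signal of 10 keratin genes on each of the 6 arrays on a log axis in arbitrary units, with control glands in blue, tumors in red, 1 point per array and horizontal bars for the group means. All 3 tumors lie above all control glands for *Krt8*, *Krt18*, *Krt23* and *Krt6a* and below them for *Krt7*, while the groups overlap for *Krt19*, *Krt5*, *Krt14*, *Krt17* and *Krt10*.

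The simple keratins did not move together. *Krt8*, the type II keratin of luminal cells, had signals of 3793, 2207 and 4938 in the 3 control glands and of 13795, 18567 and 16918 in the 3 tumors. Every tumor lay above every control gland, and the control gland with the lowest signal was replicate 2. The log2 difference was 2.24 ± 0.32 (SE, n = 3 per group, limma adjusted p = 0.00261), or 4.72-fold. The other 2 probe sets of *Krt8* gave 2.39 and 2.40. *Krt18*, the type I partner of *Krt8*, was read at 6530, 3963 and 7758 in the controls and at 16604, 25274 and 28521 across the tumors. Again the groups were apart and control replicate 2 was the lowest. *Krt18* rose by 1.97 ± 0.33 on the log2 scale (SE, limma adjusted p = 0.00466), or 3.91-fold.

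*Krt7*, a type II keratin of ducts and glands, went the other way. Its signals were 600.6, 538.7 and 517 in the control glands against 268.1, 265.2 and 226.8 in the tumors, so that all tumors lay below all control glands and both groups were tight. It fell by 1.12 on the log2 scale (SE 0.20, limma adjusted p = 0.0055), a 2.18-fold lower signal. *Krt19*, a type I keratin that needs no fixed partner and is used by luminal cells, spread widely among tumors. It was read at 3087, 1539 and 3102 in the controls and at 4237, 1847 and 876.9 across the tumors. Tumor replicate 1 was thus above every control gland and tumor replicate 3 below every one, and the log2 difference of -0.37 ± 0.57 (SE, limma adjusted p = 0.653) turned to 0.19 without tumor replicate 3. *Krt20*, a keratin of the gut and of the bladder lining, was not tested. It passed 100 only in tumor replicate 1, at 119.6.

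*Krt23*, a type I keratin known for its induction in the bile ducts of the injured liver, showed the largest difference of the tested keratins. It was read at 54.9, 72.4 and 243.3 in the control glands against 2904, 1661 and 570.7 in the tumors. The groups did not overlap, but tumor replicate 1 was far above tumor replicate 3, and only 1 control gland passed 100. The log2 difference was 3.83 ± 0.73 (SE, limma adjusted p = 0.00741), or 14.2-fold. Without the filter on low signals, which *Krt23* passed mainly through the tumors, its adjusted p was 0.0514.

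Promoter sequences were at hand in a RefSeq table of build GRCm38.p6 for 32 of the 48 genes, 13 of them tested. Shown here are the 250 bases before the annotated start of the 4 genes that rose or fell, so that the pair that rose together can be set against the simple keratin that fell, and of *Krt5* as the basal keratin. Each is written 5′ to 3′ on the strand of the gene, and capitals mark the matches to the motifs described after them.

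Krt8, chr15:102004343-102004592, minus strand: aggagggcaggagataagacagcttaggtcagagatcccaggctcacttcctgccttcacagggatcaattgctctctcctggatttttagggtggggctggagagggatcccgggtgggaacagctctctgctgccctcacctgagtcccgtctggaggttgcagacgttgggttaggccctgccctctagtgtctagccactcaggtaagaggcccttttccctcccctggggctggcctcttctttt

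Krt18, chr15:102027966-102028215, plus strand: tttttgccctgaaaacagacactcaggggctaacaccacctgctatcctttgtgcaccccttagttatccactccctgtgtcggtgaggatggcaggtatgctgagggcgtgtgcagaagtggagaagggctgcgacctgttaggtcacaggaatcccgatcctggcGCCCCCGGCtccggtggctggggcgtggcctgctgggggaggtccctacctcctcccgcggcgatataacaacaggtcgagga

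Krt7, chr15:101412153-101412402, plus strand: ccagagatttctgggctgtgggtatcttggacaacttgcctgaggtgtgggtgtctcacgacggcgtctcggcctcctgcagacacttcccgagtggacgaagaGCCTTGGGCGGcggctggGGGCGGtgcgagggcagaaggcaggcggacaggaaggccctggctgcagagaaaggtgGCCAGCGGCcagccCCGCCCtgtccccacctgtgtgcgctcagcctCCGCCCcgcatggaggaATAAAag

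Krt23, chr11:99493121-99493370, minus strand: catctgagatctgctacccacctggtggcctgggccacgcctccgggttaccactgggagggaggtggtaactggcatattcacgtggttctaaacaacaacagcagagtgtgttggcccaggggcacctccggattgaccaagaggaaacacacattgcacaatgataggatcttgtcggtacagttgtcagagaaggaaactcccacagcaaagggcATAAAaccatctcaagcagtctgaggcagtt

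Krt5, chr15:101712906-101713155, minus strand: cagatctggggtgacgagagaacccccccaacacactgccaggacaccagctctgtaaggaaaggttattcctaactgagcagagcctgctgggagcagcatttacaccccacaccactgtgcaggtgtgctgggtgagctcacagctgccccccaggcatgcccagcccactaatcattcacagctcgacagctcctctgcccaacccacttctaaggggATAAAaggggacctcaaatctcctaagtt

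*Krt8* and *Krt18* are neighbors on chromosome 15, at the end of the type II keratin cluster, and no protein-coding gene starts between them. *Krt18* is the only type I gene there. The other 24 keratins of the 48 lie on chromosome 11. The motif ATAAA, the core of many TATA boxes, was searched on the strand of the gene within the last 50 bases before the start, and was chosen after the sequences had been seen. It was present in 22 of the 32 keratin genes and in 6.57% of all 32851 promoters of the table. In *Krt5* it ends 25 bases before the start and in *Krt23* 27 bases before it. In *Krt7* it ends only 3 bases before the start, and *Krt8* and *Krt18* hold no ATAAA in this window. The search finds this spelling alone and does not tell whether a gene lacks a TATA box. *Krt18* holds tataa near the end of the sequence shown, which was not counted. The other motifs were searched on both strands over all 250 bases. The GC box GGGCGG, found in 32.7% of all promoters, was present in only 2 keratin genes, *Krt7* and *Krt75*, and *Krt7* held 4 copies. The AP-2 site GCCNNNGGC, found in 13.7% of all promoters, was present in *Krt18*, *Krt42* and *Krt7*, where 1 of its 2 copies overlaps a GC box. CCAAT was present in 14 keratin genes and in 33.8% of all promoters. The AP-1 site TGANTCA was present in *Krt13* alone and in 6.75% of all promoters, and the TCF/LEF core CTTTGAT in *Krt2* alone and in 3.21%. The sequence of *Krt8* held none of these motifs. These are matches of letters and not measured binding sites.

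Neither of the basal keratins tested passed, and none had an unadjusted p under 0.05 in limma. *Krt5*, the type II keratin of the basal layer, was read at 802.3, 524.7 and 844.4 in the controls and at 1141, 654.7 and 887.5 across the tumors. The groups overlapped, and the log2 difference was 0.30 ± 0.30 (SE, limma adjusted p = 0.473), with a 95% interval from -0.40 to 0.99. *Krt14*, its type I partner and the gene whose promoter drives Cre in this model, was read at 606.4, 212.3 and 542 in the control glands against 576.6, 676.1 and 629.1 in the tumors. Control replicate 2 was low and the other 5 arrays lay between 542 and 676.1, with a log2 difference of 0.60 ± 0.40 (SE, limma adjusted p = 0.282). The probe set used for *Krt14* may cross-hybridize with close relatives. A further *Krt14* probe set with signals over 100 on all arrays had 278.4, 144.2 and 242.6 in the controls and 314.4, 366.8 and 418.1 across the tumors. Its groups did not overlap, and used in place of the first it gave a limma adjusted p of 0.0831. The last *Krt14* probe set reached 100 in tumor replicate 1 alone, with groups that overlapped and a log2 difference of -0.016. *Krt15*, a type I basal keratin of the hair bulge, had 195.4 in control replicate 3 and at most 33.5 on the other 5 arrays. Of the 8 contractile genes that mark myoepithelial cells, 2 rose, smooth muscle actin *Acta2* by 0.78 and calponin *Cnn1* by 1.26 on the log2 scale (limma adjusted p = 0.0206 and 0.0269). The oxytocin receptor *Oxtr* fell by 2.76 (limma adjusted p = 0.00465), and 5 did not pass. Of all genes tested 16.3% were higher and 16.8% lower. The count higher was 0 without tumor replicate 1 and 1 with any other array left out, with no filter or under quantile normalization.

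Whether keratins moved apart from each other was asked with the log2 difference between 2 keratins on the same array, which leaves out the scaling of the array. For 8 such pairs the change from control glands to tumors was tested with an exact 2-sided permutation test over the 6 arrays, whose smallest possible p is 0.1. *Krt8* rose over *Krt5* by 1.31, 2.54 and 1.97 in the 3 tumors relative to the control mean, while the control glands lay within 0.27 of it. The mean change was 1.94 (95% interval from 0.88 to 3.00, exact p = 0.1, adjusted over the 8 pairs 0.2). In the same way the change was 1.36 for *Krt18* over *Krt14* (interval from 0.54 to 2.19), 3.36 for *Krt8* over *Krt7* (2.28 to 4.44) and 2.60 for *Krt8* over *Krt19* (0.50 to 4.71). In each of these 4 pairs all tumors lay above all control glands, and each had the smallest p the design allows, so that none could pass after adjustment. The change was 0.27 between the partners *Krt8* and *Krt18* (interval from -0.15 to 0.70, exact p = 0.2) and -0.30 between the partners *Krt5* and *Krt14* (-1.42 to 0.81, exact p = 0.5), and the groups overlapped in both. The last pairs rest on signals under the floor of 50 and give no change between genes. *Krt15* was under it on every array except control replicate 3, so that 0.96 for *Krt5* over *Krt15* (-0.72 to 2.63) is mostly *Krt5* over the floor. *Krt6a* over *Krt6b* (-0.13, from -1.92 to 1.67) was 0 in control replicate 2, where both genes were under the floor, and *Krt6b* was under it in control replicate 3 as well.

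**Figure D2:**
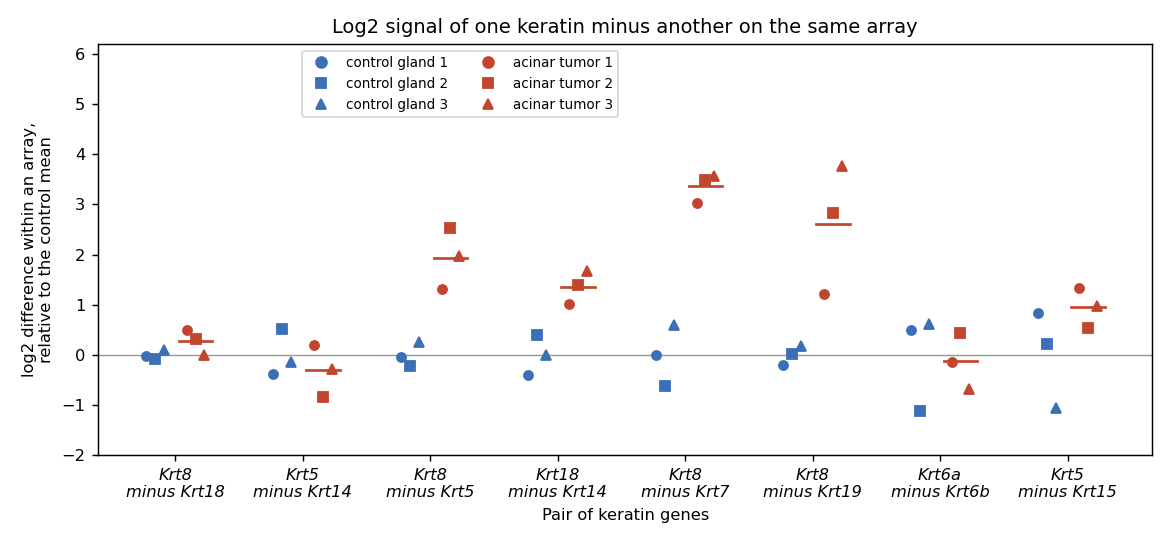
Log2 signal of one keratin minus that of another on the same array, set to a mean of 0 over the control glands for each of 8 pairs, with 1 point per array (control glands blue, tumors red) and a red bar for the tumor mean. The tumors lie above all control glands for *Krt8* over *Krt5*, *Krt7* and *Krt19* and for *Krt18* over *Krt14*, and the groups overlap in the other 4 pairs.

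Of the 4 stress-induced keratins 2 were tested, *Krt6a* and *Krt17*, and neither passed, although both had an unadjusted p under 0.05 in limma. *Krt6a*, a type II keratin of the wounded epidermis and of the hair follicle, was read at 173.9, 15.8 and 165.1 in the control glands against 475.7, 192.8 and 267.9 in the tumors. All tumors lay above all control glands, tumor replicate 1 was the highest and control replicate 2 was under the floor. The log2 difference was 1.37 ± 0.55 (SE, limma adjusted p = 0.0934). A second *Krt6a* probe set, with 60.1, 69.5 and 118.4 in the controls and 632.5, 229.5 and 285.6 across the tumors, gave a larger difference of 2.13. Before the floor its mean log2 signal was the higher of these probe sets, so that the floor in control replicate 2 decided the choice. The last *Krt6a* probe set reached 100 in tumor replicate 1 alone, with groups that overlapped and a difference of 0.76. With the mean of the *Krt6a* probe sets that passed the filter, which leaves this one out, the limma adjusted p was 0.0214. With a filter at a signal of 200 it was 0.00838, but there the second probe set stands for the gene and reached 200 in the tumors alone, so that the group where it is high selected it. With each array left out in turn the log2 difference ranged from 0.78, without control replicate 2, to 1.68, and none of these fits passed. *Krt17*, a type I keratin of appendages, was read at 152.1, 27.6 and 78.4 in the control glands against 185.8, 137.2 and 221.9 in the tumors. The groups overlapped through control replicate 1, and the log2 difference was 1.08 ± 0.42 (SE, limma adjusted p = 0.0836). With each array left out in turn it ranged from 0.71 without control replicate 2 (limma adjusted p = 0.202) to 1.51 without control replicate 1 (limma adjusted p = 0.0208), the only one of these fits to pass.

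*Krt6b* and *Krt16* were too low for the test. *Krt6b* had 56.5, 39.9 and 24.2 in the controls and 243.2, 65.4 and 198.7 across the tumors. *Krt16*, the type I partner of *Krt6a*, had 46.2, 24.3 and 3.6 in the control glands against 200.9, 51.9 and 78.8 in the tumors. In both genes the groups did not overlap, tumor replicate 1 was the highest and tumor replicate 2 the lowest of the tumors. Over all genes, 20.6% had all tumors above all control glands. *Krt6a* and *Krt6b* are near-identical, as are parts of *Krt14*, *Krt16* and *Krt17*, so probe sets may read more than 1 of them. A probe set annotated to both *Krt14* and *Krt17* was left out.

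Of the 10 suprabasal keratins 4 were tested, and none passed or had an unadjusted p under 0.05 in limma. *Krt10*, the type I keratin of the upper epidermis, was read at 291.7, 241.8 and 1787 in the controls and at 1640, 1032 and 464.6 across the tumors. Control replicate 3 was the highest of all 6 arrays, the other control glands were below every tumor, and the log2 difference was 0.88 ± 0.80 (SE, limma adjusted p = 0.434). With each array left out in turn it ranged from 0.35 without control replicate 2 (limma adjusted p = 0.785) to 1.80 without control replicate 3 (limma adjusted p = 0.0562). *Krt1*, the type II partner, had 97.3, 75.4 and 233.1 in the control glands against 279.1, 183.8 and 19.7 in the tumors. It was therefore high in the same control gland and lowest in tumor replicate 3, and its log2 difference was 0.19 ± 0.68 (SE, limma adjusted p = 0.847). *Krt77*, a type II keratin of the upper epidermis and sweat duct, had 463.7 in control replicate 3 and at most 94.3 on the other arrays.

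Control replicate 3 was above the other control glands for some other epidermal genes, but not for all of them. Loricrin, *Lor*, the main protein of the cornified envelope, was read at 268.1, 235.1 and 1061 in the controls and at 380.8, 223.5 and 401.9 across the tumors. *Krtdap*, a gene of differentiating keratinocytes, had 100.7, 13.3 and 527.4 in the control glands against 305.5, 456.8 and 337.9 in the tumors. By contrast, *Sprr1a* and *Cnfn* of the cornified envelope were lowest in control replicate 3 among the control glands. *Sprr1a* had 133.4, 655.2 and 105 there, and *Cnfn* had 113.7, 134.9 and 81.3. The summed signal of 26 genes of the cornified envelope was 3003, 2752 and 6664 in the controls and 8019, 7976 and 6111 across the tumors, so that this control gland lay within the range of the tumors. Whether skin was taken along with this sample was not tested. Of the 14 cornified envelope genes tested, 2 rose, the skin proteases *Asprv1* (log2 difference 3.05, limma adjusted p = 0.00603) and *Klk7* (2.62, limma adjusted p = 0.00185), and 12 did not pass, beside 16.3% higher among all genes tested. Both reached 100 in all tumors and in only 1 control gland, so that they entered the test through the tumors. The median log2 difference of the 14 genes was 0.86, and *Cnfn* at 0.05 was the furthest from passing. Without control replicate 3, 5 of these genes rose.

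The other 2 tested suprabasal keratins were near 0, with wide intervals. *Krt79*, a keratin of the sebaceous duct and upper hair follicle, had 302.1, 1414 and 498.3 in the control glands against 883.2, 463 and 423.2 in the tumors, a log2 difference of -0.10 ± 0.57 (SE, limma adjusted p = 0.907). *Krt78* had 19.6, 166 and 149.7 in the controls and 93.1, 70.8 and 167.2 across the tumors, a difference of -0.06 ± 0.52 (SE, limma adjusted p = 0.941). For both the sign turned under other scalings. *Krt4*, the type II keratin of the esophagus, reached 100 on 1 array, control replicate 2, with 108.8. *Krt13*, its partner, reached at most 55.3, and the signals of *Krt2*, *Krt12* and *Krt76* were below 50 on every array.

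**Figure D3:**
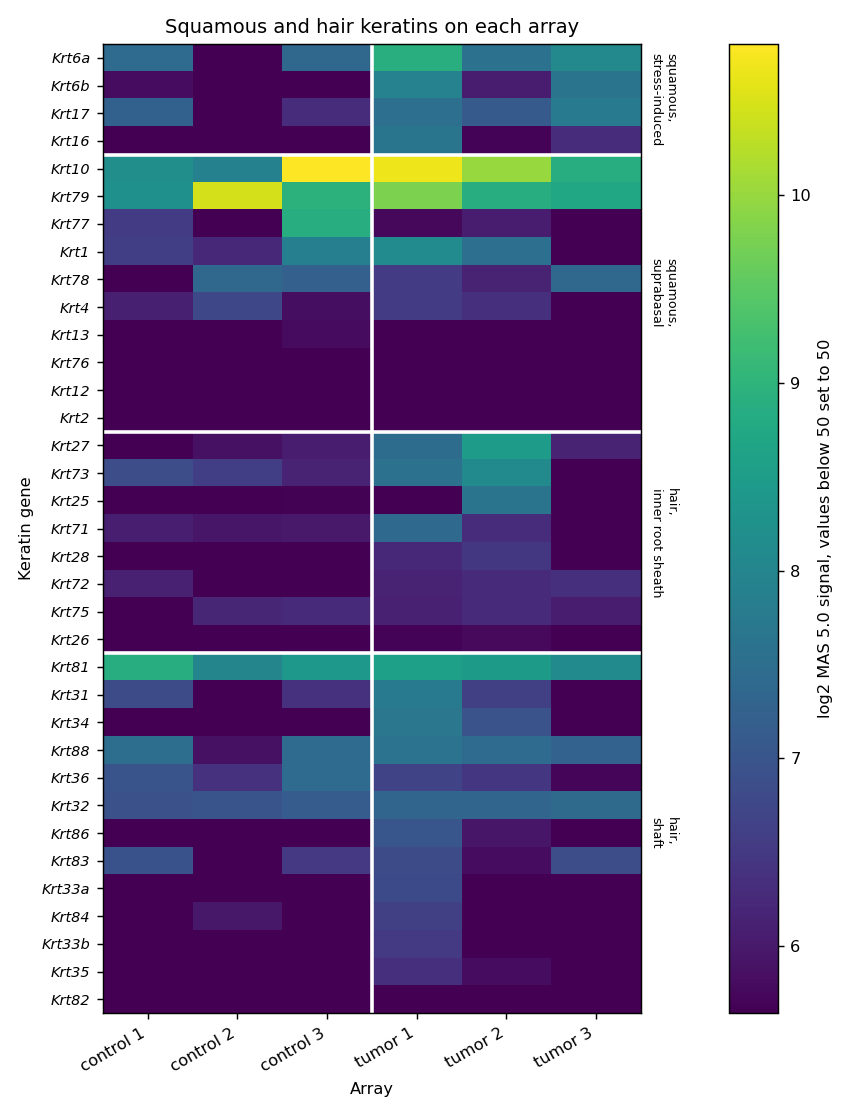
Heat map of the log2 signal, with values below 50 set to 50, of the 35 squamous and hair keratins (rows, grouped by class) on each of the 6 arrays (columns, with control glands left of the white line and tumors right of it). Color runs from the floor in dark purple to the highest signal in yellow, and *Krt10*, *Krt77* and *Krt1* are bright in control 3, whereas *Krt27*, *Krt73* and *Krt34* are brighter in tumors 1 and 2 than in tumor 3.

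The keratins of the inner root sheath, which molds the growing hair, were low, and their signals above 100 lay almost only in tumor replicates 1 and 2. Of 8 genes, 1, 0 and 0 reached 100 in the control glands and 3, 3 and 0 in the tumors. The summed signal of the 8 genes was 380.4, 344.1 and 385.4 in the control glands against 848.4, 1208 and 336.6 in the tumors, so that tumor replicate 3 was at the level of the control glands. *Krt27* was the clearest case, with 47.4, 58.8 and 66.9 in the controls and 175.9, 360.7 and 71.6 across the tumors. *Krt73*, the only gene of this class tested, had 116.3, 96.6 and 71.4 in the control glands against 188.9, 271.8 and 34 in the tumors. Its log2 difference was 0.56 ± 0.60 (SE, limma adjusted p = 0.505), and with each array left out it ranged from 0.065 without tumor replicate 2 (limma adjusted p = 0.945) to 1.29 without tumor replicate 3 (limma adjusted p = 0.0300). *Krt71* reached 168.9 in tumor replicate 1 and *Krt25* 198.4 in tumor replicate 2, and each stayed below 100 on the other arrays. For *Krt26*, *Krt27* and *Krt72* all tumors lay above all control glands, as they did for 20.6% of all genes, but *Krt26* and *Krt72* never reached 100.

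Hair shaft keratins, the sulfur-rich keratins of the hair fiber, were low as well, and none of the 5 tested passed or had an unadjusted p under 0.05 in limma. Of 13 genes, 6, 2 and 4 reached 100 in the control glands and 9, 4 and 4 in the tumors, with the 9 in tumor replicate 1. *Krt34* had 12.5, 12.3 and 40 in the controls and 207.3, 125.4 and 9.1 across the tumors. *Krt31* had 113.3, 44.7 and 83.2 in the control glands against 215.5, 98 and 48.8 in the tumors. *Krt33a* reached 112.2 and *Krt86* 130.9 in tumor replicate 1, and in both genes the other arrays stayed under 100. As for the inner root sheath, tumor replicate 3 lay within or below the range of the control glands for *Krt31* and *Krt34*.

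The 5 hair shaft keratins tested had log2 differences from -0.64 to 0.51. *Krt81* had 465.6, 256.1 and 338.1 in the controls and 377.6, 353.3 and 277.9 across the tumors, a log2 difference of -0.04 ± 0.28 (SE, limma adjusted p = 0.922). *Krt88* had 181.3, 58.4 and 173.8 against 195.5, 175.4 and 154.7, and *Krt83* had 123.2, 41.9 and 90.2 against 113.1, 56.2 and 116.6, with log2 differences of 0.51 and 0.14 (limma adjusted p = 0.408 and 0.824). In both genes the groups overlapped, with control replicate 2 low. *Krt36* had 125.8, 83 and 175.4 in the control glands against 104, 88.3 and 53.2 in the tumors, a difference of -0.64 ± 0.36 (SE, limma adjusted p = 0.217). *Krt32* was narrow in both groups, at 121.4, 127.4 and 141.8 in the controls and 161.3, 160.6 and 171.6 across the tumors. All tumors lay above all control glands by a small margin, with a log2 difference of 0.34 ± 0.19 (SE, limma adjusted p = 0.209), and in the fit with no filter the adjusted p was 0.0401.

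Hair genes other than keratins were described by a list of 21 genes, most of them keratin-associated proteins, which crosslink hair keratins. Of the 4 tested 1 rose, beside 16.3% higher among all genes tested. This was trichohyalin, *Tchh*, the protein that hardens the inner root sheath (log2 difference 1.58, limma adjusted p = 0.00393). It was read at 30.3, 24.6 and 69.8 in the control glands against 168.9, 204.4 and 134.1 in the tumors, so that all tumors lay above all control glands. No control gland reached 100, so that *Tchh* entered the test through the tumors, and with no filter its adjusted p was 0.0174. The summed signal of the 21 genes was 2980, 1595 and 2407 in the controls and 3723, 2640 and 4075 in the tumors, with tumor replicate 3 the highest. *Gata3*, a transcription factor that luminal mammary cells use as well, made up 3005 of the last sum. *Krtap11-1* at 0.50 and *Krtap12-1* at 0.07 did not pass.

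For 2 of the remaining keratins all tumors lay below all control glands, as they did for 19.3% of all genes, but both were too low for the test. *Krt24*, a type I keratin of differentiating stratified epithelia, had 80.6, 92.1 and 114.7 in the control glands against 26.5, 47.7 and 5.7 in the tumors, all below the floor of 50. In the fit with no filter, where 9.36% of 18193 genes were higher and 8.61% lower, its limma adjusted p was 0.0203. Every tumor value was set to 50 in that fit, so that this p-value does not measure the spread between tumors. *Krt222*, a gene for a short keratin-like protein, had 140.2, 94 and 111 in the controls and 51.3, 79.9 and 52.9 across the tumors (limma adjusted p = 0.0730 with no filter). *Krt42*, a nail keratin, had 1460, 832.8 and 1070 in the control glands against 1294, 794.6 and 1092 in the tumors, and its probe set may cross-hybridize. *Krt80*, a type II keratin found near cell junctions, had 178.2, 116.9 and 184.5 in the controls and 169.1, 152.1 and 147.7 across the tumors. The groups overlapped in both, with log2 differences of -0.07 ± 0.29 and -0.01 ± 0.24 (SE, limma adjusted p = 0.871 and 0.988), whose sign, like that of *Krt81*, turned with equal array medians.

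**Figure D4:**
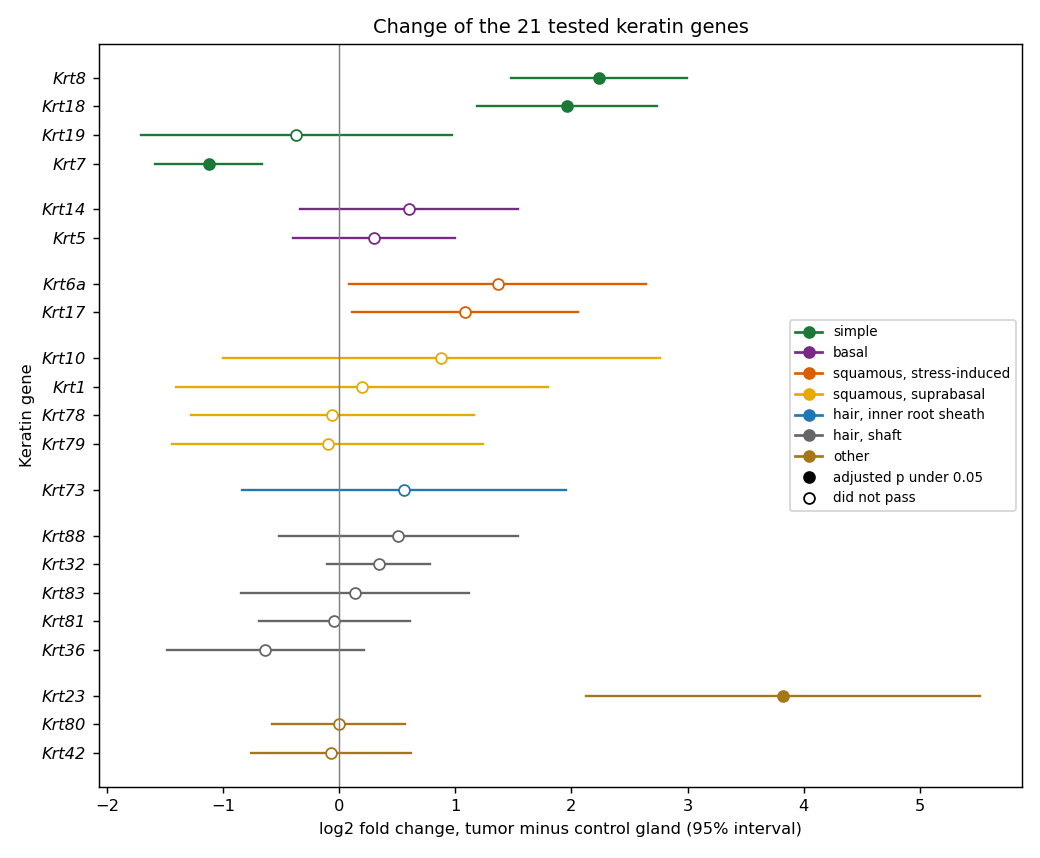
Log2 difference between tumors and control glands (x axis) of the 21 tested keratins (y axis), with the 95% interval of the limma fit as a line, color for the class and filled points for an adjusted p under 0.05. Filled points are *Krt8* at 2.24, *Krt18* at 1.97, *Krt23* at 3.83 and *Krt7* at -1.12, and the intervals of *Krt6a* and *Krt17* lie above 0 although these genes did not pass after adjustment.

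Proteins that tie keratin filaments to junctions or to each other were mixed. Of 13 such genes 3 rose, 2 fell and 8 did not pass, with a median log2 difference of -0.51. These shares are close to the 16.3% higher and 16.8% lower among all genes tested. The desmosomal plaque gene *Pkp3* rose by 1.97 on the log2 scale (limma adjusted p = 0.00397) and *Fam83h*, whose protein recruits a kinase to keratin filaments, by 1.71 (limma adjusted p = 0.00741). *Trp63*, which stands on this list although it is a transcription factor of basal cells, rose by 1.60 (limma adjusted p = 0.0325). *Dst*, which holds keratins to hemidesmosomes in one of its forms, fell by 2.35 (limma adjusted p = 0.00847), and *Eppk1*, a cross-linker of the plakin family, fell by 1.32 (limma adjusted p = 0.0353). *Ppl* at -0.18 was the furthest from passing. Only 1 linker was lower without control replicate 1, 2 or 3 or tumor replicate 2.

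Among 16 genes for other intermediate filaments 7 were tested, of which 1 rose and 2 fell, beside 16.3% and 16.8% of all genes tested, with a median log2 difference of -0.65. Vimentin, *Vim*, the filament of mesenchymal cells, was read at 16208, 17636 and 18624 in the control glands against 7059, 5310 and 2844 in the tumors. The groups were well apart, and it fell by 1.88 on the log2 scale (limma adjusted p = 0.00628), beside the fall of the fibroblast and adipocyte genes given above. Synemin, *Synm*, a filament gene of muscle, fell by 2.43 (limma adjusted p = 0.0177). *Lmnb1*, a lamin of the nucleus, rose by 1.23 (limma adjusted p = 0.0103), and *Lmna* at -0.17 did not pass. Without tumor replicate 2 only 1 of the 7 genes was lower.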

How the data were processed

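RNA of 3 tumors and 3 control glands was read on 6 arrays. The deposited intensity values came from MAS5 (version not stated in the sources), and the authors scaled each array to a common mean. Of 45101 probe sets, 64 controls were left out, and 34945 had 1 symbol, 932 several and 9160 were unnamed here. A floor of 50 was applied before taking log2. Probe sets with at least 100 on at least 3 of 6 arrays entered, the one with the highest mean log2 signal standing for its gene. The groups were tested in limma 3.58.1 (lmFit, eBayes; R 4.3.3), with Benjamini-Hochberg adjustment over all 12518 genes, a threshold of 0.05 and no fold limit. The fit was tested on simulated data. Precision is limited by 3 arrays per group. No arrays held identical values. The keratins, classes, 10 gene lists and tests were chosen with earlier results of these data known. Every tested keratin is named, with untested ones that reached 100, and of each list up to 4 called members and up to 2 furthest from passing. *Lor*, *Krtdap*, *Gata3* and *Eppk1* were named outside this rule. Lists of 142 symbols matched 132. Alternatives were other floors, scalings, filters and probe set rules, a variance trend, a replicate block, each array left out, and the methods' t-test on linear signals. No protein sequence was used here.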

Additional observations from a re-analysis of the deposited data

How the results depend on the processing

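The calls of *Krt8*, *Krt18* and *Krt7* held under every alternative with limma. That of *Krt23* held except with no filter (adjusted p = 0.0514). With each array left out in turn, the log2 difference ranged from 1.91 to 2.49 for *Krt8*, from 1.68 to 2.20 for *Krt18*, from 3.30 to 4.47 for *Krt23* and from -1.17 to -1.05 for *Krt7*. In the methods' t-test after Benjamini-Hochberg adjustment 0 keratins rose and 0 fell, where 140 of all genes passed, and the adjusted p was 0.0815, 0.145, 0.283 and 0.0681 for *Krt8*, *Krt18*, *Krt23* and *Krt7*. By the statistic and fold that the methods set, 2 keratins rose and 1 fell, and 1605 genes passed in all. At an unadjusted p under 0.05 in limma there were 6 keratins.

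Quantile normalization and equal array medians each gave 5 keratins higher, with *Krt6a* (adjusted p = 0.0397 and 0.0287) and *Krt17* (0.0297 and 0.0243) added. Equal medians moved the median log2 difference of all genes from 0.07 to 0.31 and the split of calls from 2045 higher and 2098 lower to 2997 and 1673. With no filter 3 keratins were higher, *Krt8*, *Krt18* and *Krt32*, and 2 lower, *Krt7* and *Krt24*, the latter with every tumor at the floor. In that fit 1 linker and 1 other filament gene were lower. Leaving out 1 array gave 1 to 2 linkers lower, 1 to 3 other filament genes lower and 2 to 5 cornified envelope genes higher.

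None of the keratins whose sign turned had passed. With a floor of 16, *Krt1* was at -0.25 and *Krt78* at 0.39, and with log2 of the signal plus 50 *Krt78* was at 0.11. Under quantile normalization *Krt78*, *Krt79*, *Krt80* and *Krt81* were at 0.062, 0.031, 0.22 and 0.078. Under equal medians *Krt42*, *Krt78*, *Krt79*, *Krt80* and *Krt81* were at 0.17, 0.095, 0.14, 0.23 and 0.20. *Krt42* was at 0.47 without cross-hybridizing probe sets and at 0.20 as the mean of its probe sets. With 1 array left out the ranges that crossed 0 were -0.32 to 0.92 for *Krt1*, -0.95 to 0.19 for *Krt19*, -0.27 to 0.14 for *Krt42*, -0.61 to 0.26 for *Krt78*, -0.59 to 0.52 for *Krt79*, -0.22 to 0.11 for *Krt80*, -0.25 to 0.18 for *Krt81*, -0.22 to 0.48 for *Krt83* and -0.025 to 0.79 for *Krt88*. The cause was not tested.

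Deviations from the group means correlated over genes at -0.22, 0.02 and 0.04 between samples of the same replicate number. Between samples of different numbers they correlated at -0.16 to 0.13. These values gave no sign of pairing by replicate number, but with 3 samples per group they do not settle the question. With the replicate number as a block 1630 genes were higher and 1860 lower, *Krt6a* passed (adjusted p = 0.0306), and 4 leukocyte genes were lower.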
